A study of Sus scrofa with 63 samples.

Results

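The translation initiation and elongation factors of the porcine liver were followed over 4 ontogenetic stages in offspring of German Landrace gilts that received a high protein (HP) diet during gestation. The factors were chosen by name, as the probe-sets whose single gene symbol began with EIF and a digit or with EEF1 or EEF2 in the platform annotation. This gave 65 probe-sets for 42 genes, out of 10099 probe-sets with 1 symbol for 6765 genes. Each gene was represented by the probe-set with the highest mean over all arrays. The arrays came from fetuses at 94 days post conception (94 dpc, n = 16) and from piglets and pigs at 1, 28 and 188 days post natum (dpn, n = 16, 15 and 16), with 1 animal per array and both sexes in every stage. The HP gestation diet is shared by all stages. Arrays of offspring from gilts on an adequate protein diet are not analysed here, and no value below is an effect of the diet. The fetuses were taken by Caesarean section in an experiment of their own, with other sows than those of the born animals. The born animals came from induced births, and those of 28 and 188 dpn were reared by foster sows. Males of these 2 stages had been castrated as piglets, and those of 94 dpc and 1 dpn were intact. The lightest and heaviest sibs were used at 94 dpc and 1 dpn only, an overnight fast is described for 28 and 188 dpn only, and the way of killing changed at 1 dpn and again at 28 dpn. These differences go with age and cannot be told apart from it.

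Translation begins when the initiation factors load the small ribosomal subunit with initiator tRNA, bring it to the cap at the start of an mRNA, let it scan to the start codon and admit the large subunit. The elongation factors then carry aminoacylated tRNAs to the ribosome and move it along the codons. In mammals the mRNAs of the ribosomal proteins (RP) and of several factors, among them the eEF1 subunits, share a pyrimidine tract at their first bases, through which mTOR signaling controls their own translation, and liver is among the tissues with a high output of secreted protein.

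A change is given as the difference of mean log2 signals, later stage minus earlier stage, with its standard error (SE) from limma, and was called where the Benjamini-Hochberg adjusted p over all tested probe-sets was under 0.05. Period I compares 1 dpn with 94 dpc, period II 28 dpn with 1 dpn and period III 188 dpn with 28 dpn. To set a factor against the ribosome, the mean log2 signal of 59 cytosolic RP genes on an array (the RP mean) was subtracted from every probe-set of that array and the fit was repeated. Below, such a value is called the difference from the RP mean. It compares changes and not levels, because probe-sets of 2 genes differ in brightness for reasons other than the amount of mRNA.

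The arrays carried a common scale but differed between stages in ways that touch these comparisons. In the order of age, the mean of the array medians was 7.38, 7.23, 6.83 and 6.71. The background, taken from 23 controls that have no target as their 95th percentile, had means of 6.10, 5.83, 5.65 and 5.64. In RNAs added to the samples the 3′ signal exceeded the 5′ signal on average by 0.15 (94 dpc), 0.99 (1 dpn), 1.25 (28 dpn) and 0.96 (188 dpn), with no overlap between 94 dpc (0.04 to 0.28) and 1 dpn (0.85 to 1.20). With this measure as a covariate 6 of 12850 probe-sets were called in period I, none of them a factor, so labelling and stage cannot be told apart in that period. All 8 hepatocyte markers were above background at every stage, and 5 of them fell in period I, 4 fell and 2 rose in period II and none was called in period III. All 7 red cell precursor markers measured fell in period I (median −2.78), and their summed linear signal was 1617 to 4586 at 1 dpn, against 16286 to 37425 at 94 dpc. In period II 3 of 4 tested rose (median 1.32) and 1 fell. Of 10 genes of DNA replication and mitosis 8 fell in period II, and all 7 that were tested fell in period III, with a summed linear signal of 687 to 1465 at 188 dpn, against 1483 to 4870 at 28 dpn. Of 6 macrophage markers 4 rose in period II and all 6 fell in period III, and the 3 tested T and NK cell markers had changes of 2.04 to 6.00 in period II, all called, with 2 of them falling in period III. Array 6 of 94 dpc had a lower mean correlation across probe-sets with the other arrays of its stage (0.852) than any of those (0.881 to 0.892), and 1 dpn arrays 25, 27 and 28 had sums of 1369, 1464 and 1803 for the replication and mitosis genes, against 3929 to 15380 on the other 13 arrays of that stage. In whole tissue, fewer cells of a type and less mRNA per cell cannot be told apart, and the part of these cells in the changes below was not tested.

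The factors covered a wide range of signals. EEF1A1 (mean 15.65 over all arrays), EEF1B2 (15.07), EEF1G (14.64) and EIF1 (14.43) lay above the 99th percentile of at least 50% of the arrays, as did 51 of the 59 RP genes. At the other end were EIF5B (7.25) and EIF4E (7.27), not far above background, and EIF1AY, whose mean of 6.40 joins arrays with high and with low signals. The spread between arrays of a stage was small for most factors, with median SDs of 0.23, 0.31, 0.23 and 0.26 in the order of age. EIF1AY, the copy of EIF1AX that RefSeq places on the Y chromosome, was the exception, with SDs of 2.81 to 3.71. At 94 dpc its signal was 9.58 to 10.19 on 9 arrays and at most 6.01 on the other 7. At 1, 28 and 188 dpn it exceeded 8 on 8, 7 and 7 arrays and was at most 5.23, 5.31 and 5.85 on the others.

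**Figure D1:**
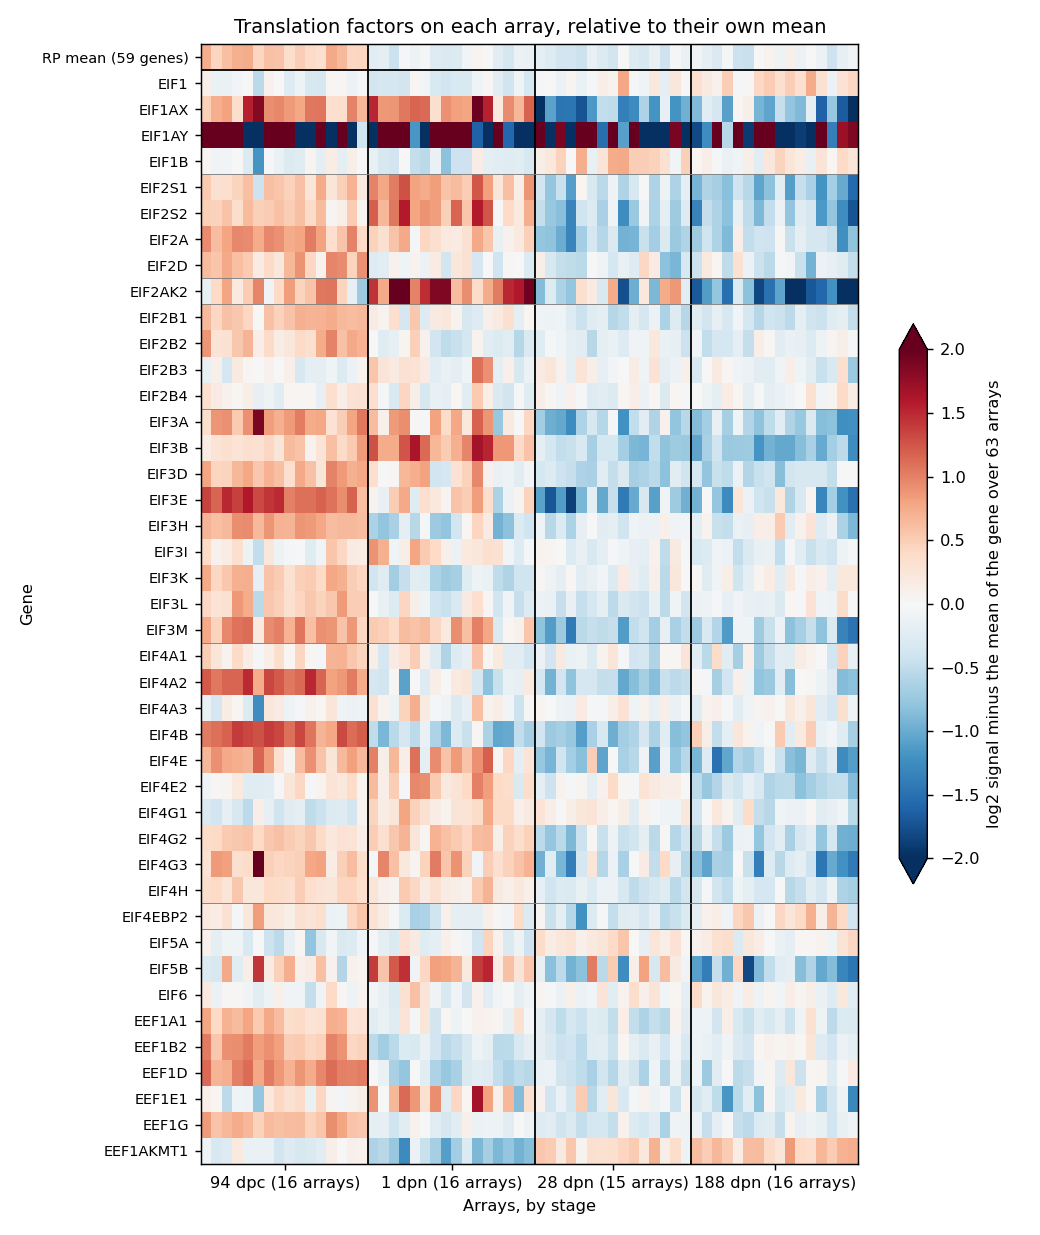
Heat map of the log2 signal of the RP mean and of the 42 translation factors on the 63 arrays, each row relative to its own mean over all arrays (red above, blue below, colours end at −2 and 2), with stages separated by black lines and functional groups by grey lines. The RP mean, EIF4B and the eEF1 subunits are highest on the 94 dpc arrays, EIF2AK2 on the 1 dpn arrays, and EIF1AY splits the arrays within every stage.

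More factors fell than rose in periods I and II, and the numbers were close in period III. In period I, 8 of the 42 factors rose and 20 fell, with a median of −0.17, whereas 22.9% of all 12850 tested probe-sets rose and 34% fell, with a median of −0.10. In period II, 5 rose and 25 fell (median −0.34), beside 28.7% and 42.9% of 13094 probe-sets (median −0.14). In period III, 6 of 40 tested factors rose and 7 fell (median 0.02), beside 12.3% and 22.5% of 12435 probe-sets (median −0.07). EIF4E was too dim to be tested. EIF1AY had a high signal on 7 of 15 arrays at 28 dpn and on 7 of 16 at 188 dpn, too few for the filter on level. In periods I and II its change joins arrays with high and with low signals. In total 66.7%, 71.4% and 32.5% of the factors were called, close to the 56.9%, 71.6% and 34.7% of all probe-sets, so the share that changed did not set the factors apart. Centring each array on the median of its tested probe-sets moved the split to 10 rises and 17 falls in period I. It became 11 and 16 in period II, and 11 and 4 in period III. All probe-sets then had 3644 rises and 3520 falls in period I, 5168 and 4297 in period II, and 2372 and 1852 in period III. Quantile normalization moved the split of the factors to 9 and 22, 2 and 26, and 4 and 8. All probe-sets then had 3441 and 3703, 4770 and 4489, and 1992 and 2213. Without array 6 of 94 dpc, 8 factors rose and 22 fell in period I, beside 2941 and 4448 of all probe-sets. Without 1 dpn arrays 25, 27 and 28, 7 rose and 21 fell in period I, beside 2877 and 4436. In period II 6 then rose and 22 fell, beside 3674 and 5519.

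**Figure D2:**
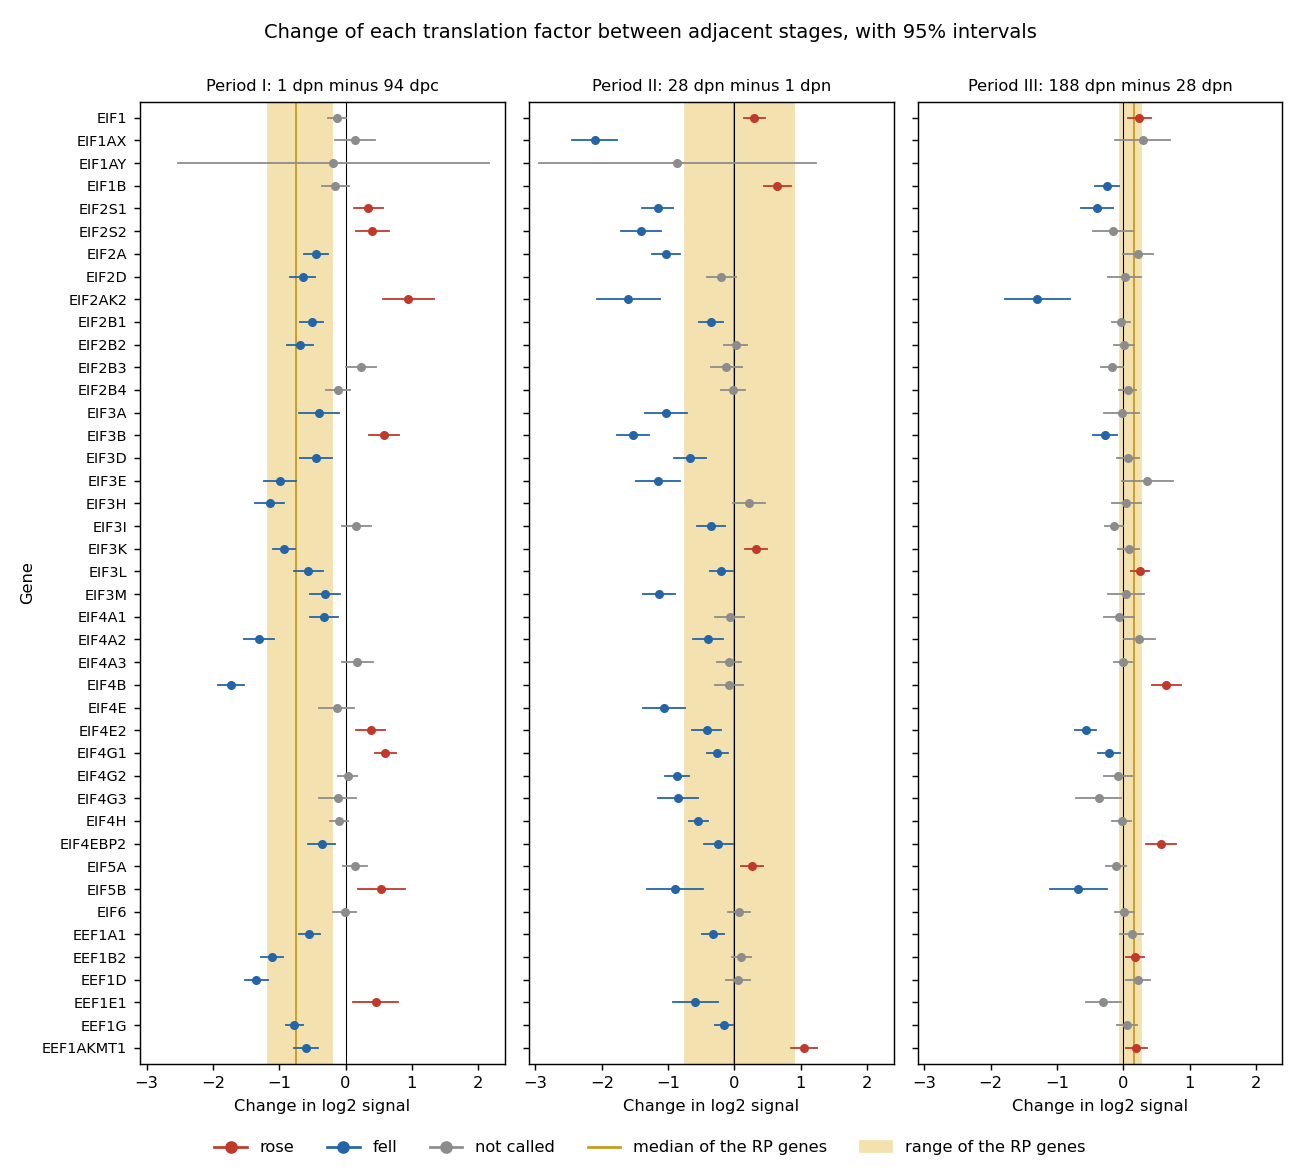
Change in log2 signal of each factor in period I (1 dpn minus 94 dpc), period II (28 dpn minus 1 dpn) and period III (188 dpn minus 28 dpn), with 95% intervals from limma; the gold line is the median and the band the range of the tested RP genes. EIF4B, EEF1D and EIF4A2 lie below the whole RP band in period I, and EIF1AX, EIF2AK2 and EIF3B lie farthest to the left in period II.

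The RP genes give the reference for these changes. They include RPS15A, RPL30 and RPL26, whose probe-sets averaged 5.03, 5.34 and 6.39 over all arrays, close to background. With the RP median in place of the RP mean, 29 factors were called above and 5 below in period I, beside 9454 and 614 of 12850 probe-sets. The numbers were 7 and 22 in period II, beside 3856 and 5232 of 13094 probe-sets. In period III they were 2 and 12, beside 683 and 4552 of 12435. In the order of age, the RP mean averaged 14.88 ± 0.15, 14.17 ± 0.14, 14.09 ± 0.14 and 14.19 ± 0.17 (SD, n = 16, 16, 15 and 16). In period I all 56 tested RP genes fell, by 0.20 to 1.17 (median −0.75). After quantile normalization 39 of them fell and 4 rose (median −0.21). This step gives all arrays the same distribution, and 51 of the RP genes lie at its upper end. In period II, 8 RP genes rose and 16 fell (median −0.01), and in period III 14 rose and none fell (median 0.15). The direction of these later, small changes turned with the scaling, as 33 rose and 5 fell in period II after centring and 6 fell and none rose in period III after quantile normalization.

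Among the small initiation factors, EIF1AX fell most of all 42 factors in period II. EIF1AX, which with EIF1 keeps the small subunit open for scanning, had log2 signals of 9.70 to 11.20 (median 10.19) at 94 dpc, 9.55 to 11.33 (10.29) at 1 dpn, 7.32 to 9.20 (8.17) at 28 dpn and 7.01 to 9.49 (8.53) at 188 dpn. Every 28 dpn array was below every 1 dpn array, and the change was −2.11 (SE 0.17, adjusted p = 1.08e-12), a 4.31-fold lower signal. A second, dimmer probe-set of EIF1AX changed by −0.42 in that period and did not pass (adjusted p = 0.0661). EIF1B, a close relative of EIF1, took the other course with 10.98 to 11.95 (median 11.53) at 1 dpn, 11.65 to 12.57 (12.27) at 28 dpn and 11.60 to 12.25 (11.93) at 188 dpn. Its stages overlapped. In period II it was higher at 28 dpn by 0.65 (SE 0.10, adjusted p = 6.40e-07), and in period III it fell by 0.25 (SE 0.09, adjusted p = 0.0341), a call that was lost with the labelling covariate. EIF1 itself guards the choice of the start codon. Its brighter probe-set rose in period II by 0.30 (SE 0.08, adjusted p = 0.00113) and in period III by 0.24 (SE 0.09, adjusted p = 0.0290). Neither rise passed after quantile normalization. The other probe-set of EIF1 was called falling in period II, so no direction is given for EIF1 in that period.

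Both measured subunits of eIF2, the GTPase that brings the initiator tRNA, rose in period I and fell in period II. EIF2S1, the alpha subunit on which stress kinases act, had log2 signals of 10.56 to 11.71 (median 11.44) at 94 dpc, 11.11 to 12.25 (11.77) at 1 dpn, 9.87 to 11.01 (10.60) at 28 dpn and 9.42 to 10.75 (10.22) at 188 dpn. Arrays of 28 dpn and 1 dpn did not overlap. The changes were 0.35 (SE 0.11, adjusted p = 0.00652), −1.16 (SE 0.11, adjusted p = 1.85e-10) and −0.40 (SE 0.12, adjusted p = 0.00815) in periods I, II and III. EIF2S2, the beta subunit, rose by 0.41 (SE 0.12, adjusted p = 0.00580) and fell by 1.41 (SE 0.15, adjusted p = 6.37e-10) in the first 2 periods. EIF2A and EIF2D, which can also deliver tRNA but are no subunits of eIF2, fell in period I by 0.45 and 0.65. EIF2A fell again by 1.03 (SE 0.10, adjusted p = 1.59e-10) in period II, when EIF2D changed by −0.20 without passing.

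EIF2AK2, the kinase PKR that phosphorylates the alpha subunit of eIF2 on sensing double-stranded RNA, changed in all 3 periods. Its log2 signal was 7.44 to 9.25 (median 8.61) at 94 dpc, 8.54 to 10.67 (9.63) at 1 dpn, 6.41 to 9.03 (7.90) at 28 dpn and 5.41 to 7.88 (6.62) at 188 dpn. The 1 dpn arrays were the highest and the 188 dpn arrays the lowest, although neighbouring stages overlapped and 1 of the 188 dpn arrays was below background. EIF2AK2 rose by 0.95 (SE 0.19, adjusted p = 7.34e-05) in period I, a 1.93-fold higher signal, and fell by 1.60 (SE 0.23, adjusted p = 3.57e-07) in period II and by 1.30 (SE 0.24, adjusted p = 7.26e-05) in period III. It was the largest rise among the factors in period I and the largest fall in period III. Both falls also passed after quantile normalization, after centring and with the labelling measure as a covariate.

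The 4 measured subunits of eIF2B, the exchange factor that reloads eIF2 with GTP, were mostly not called after 1 dpn. EIF2B1 fell by 0.51 (SE 0.09, adjusted p = 5.96e-06) and EIF2B2 by 0.69 (SE 0.10, adjusted p = 5.34e-07) in period I, while EIF2B3 and EIF2B4 changed by 0.23 and −0.11 and did not pass. In period II only EIF2B1 was called, with −0.36 (SE 0.09, adjusted p = 6.43e-04), and in period III none of the 4 was called, all changes lying between −0.17 and 0.06.

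Of 9 subunits of eIF3, the large scaffold that holds the small subunit and the mRNA together, 7 fell in period I and 7 in period II, and 5 of these fell in both. This is 77.8% of the subunits in each period, beside 34% and 42.9% of all probe-sets. EIF3H, a regulatory subunit, had log2 signals of 11.57 to 12.94 (median 12.04) at 1 dpn, against 13.12 to 13.47 (13.19) at 94 dpc. The stages did not overlap, and EIF3H fell by 1.14 (SE 0.11, adjusted p = 8.41e-11) in period I and changed by 0.22 without passing in period II. EIF3K, a small peripheral subunit, fell by 0.93 (SE 0.08, adjusted p = 3.92e-11) and then rose by 0.32 (SE 0.08, adjusted p = 6.29e-04). EIF3L, its partner, fell by 0.56 in period I and by 0.20 in period II, the second without passing once 1 dpn arrays 25, 27 and 28 were left out (adjusted p = 0.0997), and rose by 0.26 (SE 0.07, adjusted p = 0.00294) in period III.

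EIF3B, one of the core scaffold subunits, ran against the others in period I. Its log2 signal was 9.89 to 10.67 (median 10.15) at 94 dpc, 10.19 to 11.48 (10.69) at 1 dpn, 8.89 to 9.64 (9.33) at 28 dpn and 8.57 to 9.42 (9.02) at 188 dpn, so that no array of 28 dpn reached the lowest of 1 dpn. EIF3B rose by 0.58 (SE 0.11, adjusted p = 5.90e-05) in period I, fell by 1.53 (SE 0.12, adjusted p = 1.18e-12) in period II and fell by 0.28 (SE 0.09, adjusted p = 0.0134) in period III, where the call was lost after quantile normalization and after centring. EIF3E fell in both early periods, by 0.99 (SE 0.12, adjusted p = 1.19e-08) and by 1.15 (SE 0.16, adjusted p = 1.62e-07). EIF3A, EIF3D and EIF3M also fell in both, with changes of −0.40, −0.44 and −0.31 in period I and of −1.03, −0.67 and −1.14 in period II. EIF3I, a subunit of the EIF3B module, changed by 0.17 without passing in period I and fell by 0.36 (SE 0.10, adjusted p = 0.00250) in period II.

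The factors of the cap complex moved apart from each other between 94 dpc and 1 dpn. EIF4B, which stimulates the helicase that opens the 5′ end of the mRNA, had log2 signals of 12.56 to 13.27 (median 13.07) at 94 dpc, 10.83 to 11.89 (11.34) at 1 dpn, 10.77 to 11.65 (11.21) at 28 dpn and 11.21 to 12.39 (11.85) at 188 dpn. No array of 1 dpn reached the lowest array of 94 dpc, and the change of −1.73 (SE 0.10, adjusted p = 3.65e-16), a 3.32-fold lower signal, was the largest fall of all factors in period I. EIF4B rose again by 0.65 (SE 0.11, adjusted p = 1.53e-05) in period III, the largest rise among the factors in that period. Its other probe-set changed by −1.34 and 0.48 in the same periods, both called, and fell by 0.54 in period II, when the chosen one changed by −0.08 without passing.

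EIF4A2, one of the helicases itself, had log2 signals of 12.44 to 13.75 (median 13.36) at 1 dpn, against 14.24 to 15.02 (14.65) at 94 dpc. The stages did not overlap, and EIF4A2 fell by 1.30 (SE 0.11, adjusted p = 9.83e-12) in period I and by 0.40 (SE 0.11, adjusted p = 0.00250) in period II. Its paralog EIF4A1 fell by 0.32 (SE 0.11, adjusted p = 0.00962) in period I and was not called later. EIF4A3, the paralog in the exon junction complex, was not called in any period.

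EIF4G1, the scaffold that joins cap, helicase and ribosome, rose when EIF4B fell. Its log2 signal was 11.43 to 12.16 (median 11.65) at 1 dpn, against 10.83 to 11.50 (11.08) at 94 dpc. Only a narrow stretch was shared by both stages, and EIF4G1 rose by 0.60 (SE 0.08, adjusted p = 7.97e-08). It fell by 0.26 (SE 0.08, adjusted p = 0.00306) in period II and by 0.22 (SE 0.08, adjusted p = 0.0359) in period III, and neither fall passed after centring. EIF4G2, a related scaffold that does not bind the cap protein, and EIF4G3, the second eIF4G, changed by 0.03 and −0.12 in period I without passing. Both fell in period II, EIF4G2 by 0.86 (SE 0.09, adjusted p = 5.02e-10) with no overlap of arrays and EIF4G3 by 0.85 (SE 0.15, adjusted p = 5.98e-06).

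The cap-binding proteins were among the dimmer factors. EIF4E, which binds the cap, had log2 signals of 6.19 to 7.76 (median 6.63) at 28 dpn, against 7.08 to 8.47 (7.85) at 1 dpn, and fell by 1.06 (SE 0.16, adjusted p = 5.01e-07). At 28 and 188 dpn it lay below the median of most arrays. EIF4E2, which binds the cap without recruiting eIF4G, rose by 0.38 (SE 0.11, adjusted p = 0.00306) in period I and fell by 0.42 (SE 0.11, adjusted p = 0.00107) in period II and by 0.57 (SE 0.08, adjusted p = 4.56e-07) in period III. The rise of EIF4E2 was not seen in the mean of its probe-sets (−0.036, adjusted p = 0.841). EIF4H, an activator of the helicase akin to EIF4B, fell by 0.55 (SE 0.07, adjusted p = 3.10e-08) in period II only. EIF4EBP2, which blocks EIF4E until mTOR phosphorylates it, had log2 signals of 10.27 to 11.37 (median 10.85) at 188 dpn, against 9.45 to 10.71 (10.37) at 28 dpn. The stages overlapped, and EIF4EBP2 rose by 0.57 (SE 0.11, adjusted p = 1.20e-04), as did its 4 other probe-sets by 0.40 to 0.61. In period II, 2 of those 4 rose, by 0.67 and 0.53, whereas the chosen one fell by 0.24 (SE 0.11, adjusted p = 0.0457), which did not pass without 1 dpn arrays 25, 27 and 28 (adjusted p = 0.0730). In period I the chosen probe-set changed by −0.36, a called fall. This fall was not seen in the mean of the probe-sets of EIF4EBP2 (0.039, adjusted p = 0.711).

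The 3 late factors of initiation had little in common. EIF6, which keeps the large subunit from joining too early, had medians of 11.03, 11.03, 11.13 and 11.16 in the order of age, and changes of −0.01 (SE 0.08), 0.07 (SE 0.08) and 0.02 (SE 0.07), none of them called. EIF5B, the GTPase of subunit joining, had log2 signals of 6.67 to 8.68 (median 7.37) at 94 dpc, 7.18 to 8.78 (7.89) at 1 dpn, 6.01 to 8.29 (7.10) at 28 dpn and 5.45 to 7.67 (6.38) at 188 dpn. Its stages overlapped, and it rose by 0.54 (SE 0.17, adjusted p = 0.00887), fell by 0.89 (SE 0.21, adjusted p = 3.36e-04) and fell by 0.68 (SE 0.21, adjusted p = 0.0131) in periods I, II and III, the last call being lost with the labelling measure as a covariate. EIF5A, which helps the ribosome through runs of proline, gave opposite answers from its 2 probe-sets in period II, 0.27 (SE 0.08, adjusted p = 0.00557) from the brighter one and −1.10 (SE 0.13, adjusted p = 3.23e-09) from the other. The dimmer probe-set also rose by 1.42 in period I, when the brighter one changed by 0.15 without passing, so no direction is given for EIF5A.

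**Figure D3:**
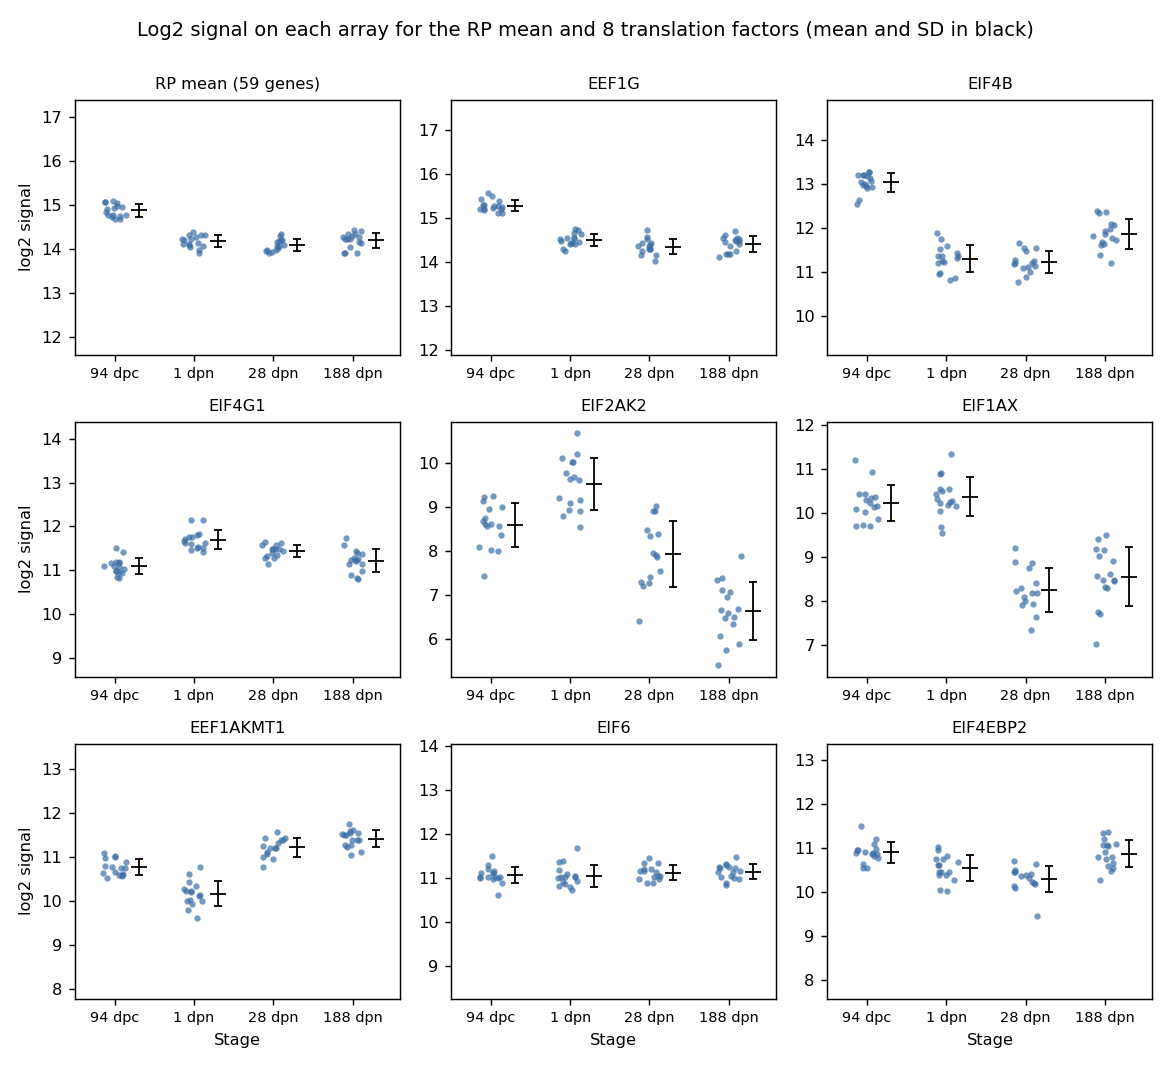
Log2 signal of the RP mean and of 8 translation factors on every array (blue points) at 94 dpc, 1 dpn, 28 dpn and 188 dpn, with the stage mean and SD in black; all panels span the same number of log2 units. EEF1G follows the steps of the RP mean, EIF4B falls farther and rises again, EIF1AX drops at 28 dpn, EIF2AK2 is highest at 1 dpn, and the stage means of EIF6 differ by at most 0.07 between neighbours.

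By their chosen probe-sets all 4 subunits of eEF1 fell in period I, as the RP genes did, beside 34% of all probe-sets. EEF1D, the delta subunit of the exchange complex that reloads eEF1A, had log2 signals of 12.11 to 12.88 (median 12.38) at 1 dpn, against 13.56 to 14.02 (13.85) at 94 dpc, and fell by 1.34 (SE 0.08, adjusted p = 4.71e-15). EEF1B2, the beta subunit, had 14.38 to 14.97 (median 14.74) at 1 dpn, against 15.48 to 16.11 (15.90) at 94 dpc, and fell by 1.11 (SE 0.08, adjusted p = 4.13e-13). EEF1G, which anchors the complex, had 14.25 to 14.74 (median 14.50) at 1 dpn, against 15.11 to 15.57 (15.26) at 94 dpc, and fell by 0.77 (SE 0.06, adjusted p = 2.21e-12). In each of these 3 subunits every array of 1 dpn was below every array of 94 dpc. The share of all probe-sets separated in this way is not given here, so the separation does not set these subunits apart. The 4 falls also passed after quantile normalization and after centring, and none passed with the labelling measure as a covariate. After 1 dpn the subunits changed by no more than 0.32 in size. EEF1G fell by 0.16 (SE 0.07, adjusted p = 0.0406) in period II, a call that was lost without 1 dpn arrays 25, 27 and 28 (adjusted p = 0.0585), EEF1B2 rose by 0.17 (SE 0.07, adjusted p = 0.0477) in period III, where quantile normalization gave −0.0091 (adjusted p = 0.92), and EEF1D was not called in either.

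EEF1A1, which carries the aminoacylated tRNAs, depended on the probe-set. The brightest one, a control probe-set of the array design aimed at the middle of this mRNA, had log2 signals of 15.93 to 16.45 (median 16.22) at 94 dpc, 15.29 to 15.96 (15.65) at 1 dpn, 15.04 to 15.78 (15.30) at 28 dpn and 15.12 to 15.96 (15.41) at 188 dpn. It fell in period I by 0.55 (SE 0.08, adjusted p = 4.38e-07) and in period II by 0.32 (SE 0.08, adjusted p = 8.08e-04), with overlapping arrays. Of the 3 other probe-sets named EEF1A1, a dim one also fell, by 1.42 and 0.38, whereas the other 2 rose by 0.51 and 0.44 in period I and by 1.23 and 1.32 in period II. Of 9 further probe-sets that carry the old symbol EF1ALPHA and were not members, 3 averaged above 16 at 94 dpc, as the chosen one did, and all 3 fell in period I, by 0.61, 0.47 and 0.60. Those aimed at the 3′ and the 5′ end changed by −0.09 and −0.69 in period II, the first without passing. A single EF1ALPHA probe-set, chosen for mention after its values were seen, averaged 9.24, 9.62, 14.16 and 14.20 over the 4 stages, a change of 4.54 (SE 0.17) in period II. Binding of mRNAs from other eEF1A genes to these probe-sets was not tested, and no direction of EEF1A1 after 1 dpn is drawn from them.

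**Figure D4:**
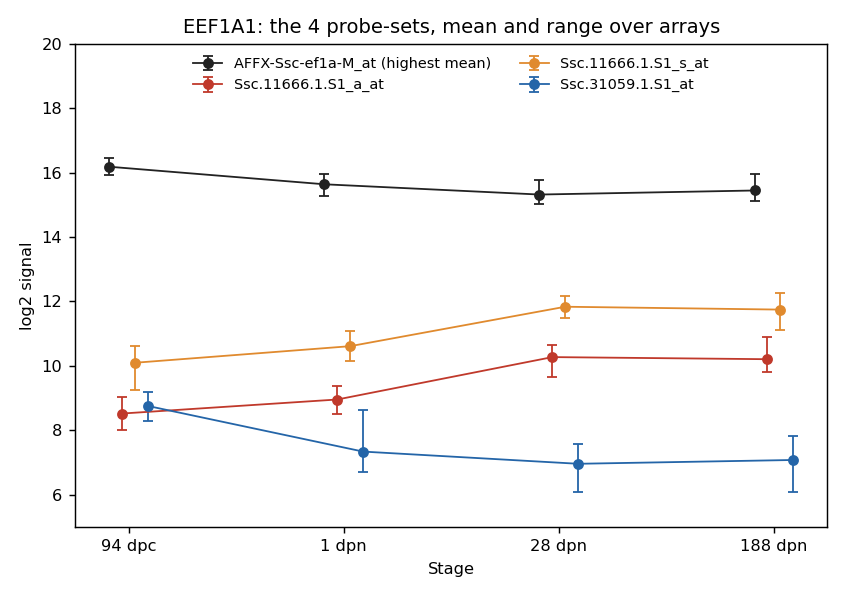
Mean log2 signal (points) and lowest to highest array (bars) of the 4 probe-sets with the symbol EEF1A1 at the 4 stages. The brightest probe-set (black) falls by 0.55 in period I, while the probe-sets drawn in red and orange rise by 1.32 and 1.23 in period II.

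Both proteins related to eEF1 had courses of their own. EEF1AKMT1, named for its methyltransferase activity on eEF1A, had log2 signals of 10.51 to 11.08 (median 10.75) at 94 dpc, 9.60 to 10.77 (10.16) at 1 dpn, 10.78 to 11.57 (11.21) at 28 dpn and 11.03 to 11.74 (11.44) at 188 dpn. The arrays of 28 dpn were all above those of 1 dpn. EEF1AKMT1 fell by 0.60 (SE 0.09, adjusted p = 1.35e-06) in period I, and in period II it rose by 1.05 (SE 0.10, adjusted p = 3.71e-11), the largest rise among the factors in that period, and its second probe-set changed by −0.34 and 0.82, both called. EEF1E1, a member of the complex of tRNA synthetases in spite of its name, rose by 0.45 (SE 0.17, adjusted p = 0.0206) in period I and fell by 0.59 (SE 0.17, adjusted p = 0.00228) in period II. Without 1 dpn arrays 25, 27 and 28, its change was 0.34 and did not pass (adjusted p = 0.0719).

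Set against the RP mean, most factors lay above it in period I, as most probe-sets did. The difference from the RP mean was called positive for 27 factors and negative for 7, with a median of 0.54. Among all probe-sets 69.1% were called positive and 5.8% negative (median 0.61), and in total 81% of the factors and 74.9% of all probe-sets were called. The 7 factors that fell more than the RP mean were EIF4B (−1.03, SE 0.09, adjusted p = 8.76e-12), EEF1D (−0.64, SE 0.08, adjusted p = 9.43e-09), EIF4A2 (−0.60), EIF3H (−0.44), EEF1B2 (−0.40), EIF3E (−0.29) and EIF3K (−0.22), that is 16.7% of the factors. Of these 7, 5 are on the list of mRNAs with the pyrimidine tract, and EIF4A2 and EIF3K are not on it. The largest positive differences belonged to EIF2AK2 (1.65, SE 0.21, adjusted p = 1.37e-08), EIF4G1 (1.31, SE 0.09, adjusted p = 1.37e-14) and EIF3B (1.29, SE 0.11, adjusted p = 5.37e-12). Quantile normalization moved the split to 14 positive and 14 negative, beside 5202 and 2237 of all 12850 probe-sets. All 7 named factors stayed negative with it.

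In period II the difference from the RP mean was called negative for 21 factors and positive for 7, beside 38.1% and 31.7% of all probe-sets (69.9% in total). EIF1AX (−2.03, SE 0.17, adjusted p = 3.71e-12), EIF2AK2 (−1.52, SE 0.25, adjusted p = 3.92e-06) and EIF3B (−1.45, SE 0.12, adjusted p = 3.05e-12) lay farthest below, and EEF1AKMT1 (1.13, SE 0.10, adjusted p = 3.36e-11), EIF1B (0.73, SE 0.11, adjusted p = 4.86e-07) and EIF3K (0.41, SE 0.06, adjusted p = 1.00e-06) farthest above. In period III, 2 factors were called above the RP mean, EIF4B (0.54, SE 0.12, adjusted p = 7.22e-04) and EIF4EBP2 (0.47, SE 0.13, adjusted p = 0.00444), and 12 of 40 below it, in this order beside 7.49% and 28.5% of all probe-sets (36% in total). The lowest were EIF2AK2 (−1.40, SE 0.27, adjusted p = 1.37e-04), EIF5B (−0.78, SE 0.22, adjusted p = 0.00571) and EIF4E2 (−0.67, SE 0.10, adjusted p = 4.76e-06). After quantile normalization 5 factors were above and 5 below in period III, beside 2420 and 1798 of all 12435 probe-sets.

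A factor was taken to follow the RP mRNAs where the 95% interval of its difference stayed within −0.5 and 0.5 in all 3 periods, and to depart where the difference was called and larger than 0.5 in at least 1 period. By this rule 5 of 42 factors followed (EEF1A1, EEF1G, EIF2B2, EIF2D and EIF3L), 29 departed, 6 were undetermined and 2 were not tested in every period. Over the 11382 probe-sets tested in all periods 2.71% followed and 82.6% departed, beside 12.5% and 72.5% of the 40 factors so tested, so departing was the usual case on these arrays. Of the 59 RP genes 47 followed, 4 departed, 5 were undetermined and 3 were not tested in every period, though they are part of the mean they were set against. EEF1G stayed closest, with differences of −0.07 (95% interval −0.19 to 0.05), −0.08 (−0.19 to 0.04) and −0.05 (−0.17 to 0.07). EIF2B2 had 0.02 (−0.18 to 0.21), 0.10 (−0.10 to 0.29) and −0.09 (−0.27 to 0.09). After quantile normalization EEF1A1 and EEF1G still followed and 21 of the 29 still departed, while EIF2B2 departed. For EEF1A1 the class rests on the chosen probe-set, since 2 of the other 3 rose in period I by over 1 relative to the RP mean.

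The departures were mostly upward in period I and downward in period II. In period I, 21 of 42 factors were called over 0.5 above the RP mean, fewer than the 57.3% of all probe-sets, and 3 were below it (EEF1D, EIF4A2 and EIF4B), beside 4.01%. In period II, 15 were over 0.5 below it, among them both measured eIF2 subunits, 5 of the 9 eIF3 subunits (EIF3A, EIF3B, EIF3D, EIF3E and EIF3M) and the scaffolds EIF4G2 and EIF4G3, and 2 were above it (EEF1AKMT1 and EIF1B), beside 31% and 23.1% of all probe-sets. In period III, EIF4B was above it and EIF2AK2, EIF4E2 and EIF5B were below it, beside 4.05% and 16.2% of all probe-sets. Being just inside or outside the limit decided some classes, as EIF2B4 departed at 0.59 in period I and EIF3H with −0.44 remained undetermined.

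A pair of lists cut across the groups. Of 9 factors listed for mRNAs with the pyrimidine tract, 7 were measured (EEF1A1, EEF1B2, EEF1D, EEF1G, EIF3E, EIF3H and EIF4B). By their chosen probe-sets all 7 fell in period I with a median of −1.11, also after quantile normalization and after centring, beside 34% of all probe-sets. With the labelling measure as a covariate none of the 7 was called, and the probe-sets of EEF1A1 were called in both directions. The list was chosen with earlier results of these data known. In period II 3 of the 7 fell (median −0.08), the same 42.9% as of all probe-sets, and in period III 2 rose (median 0.17), beside 12.3%. Of 7 factors that the study placed under mTOR signaling (EIF3E, EIF3I, EIF4A2, EIF4B, EIF4E, EIF4G2 and EIF4G3), 3 fell in period I (42.9%, beside 34% of all probe-sets) and 6 fell in period II (85.7%, beside 42.9%, median −0.85), and 1 of 6 tested rose in period III (16.7%, beside 12.3%). The study chose this list on arrays that include these, so it is no independent evidence of a direction.

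Other genes around translation gave a mixed picture. Of 17 tRNA synthetases and their scaffold proteins, which charge tRNAs with amino acids, 3 rose and 3 fell in period I (median 0.04), 14 fell and none rose in period II (median −0.69), and 8 fell and none rose in period III (median −0.34), the last shares lying above the 42.9% and 22.5% of all probe-sets that fell. DARS changed by −2.50 and EPRS by −1.78 in period II. Of 3 genes of poly(A) binding, PABPC1 and PABPC4 fell by 0.98 and 1.07 in period I. In period II PABPC4 and PAIP1 both fell by 0.42, and in period III PABPC4 rose by 0.27. Of 6 genes of the response to eIF2 phosphorylation 2, 2 and 1 fell in periods I, II and III and none rose, shares of 33.3%, 33.3% and 16.7% that do not exceed those of all probe-sets. ASNS, the asparagine synthetase among them, changed by −3.88 in period II. Of 4 tested genes of mTOR and MNK signaling 2 rose and 1 fell in period I, 1 fell in period II and 1 rose in period III. Of 5 tested genes of mitochondrial translation 1 rose in period I and 2 fell in period II, and none of 4 was called in period III. The last 2 lists and that of poly(A) binding are too short to be read against the shares of all probe-sets. Genes of termination and recycling and EEF2 are not analysed here.

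**Figure D5:**
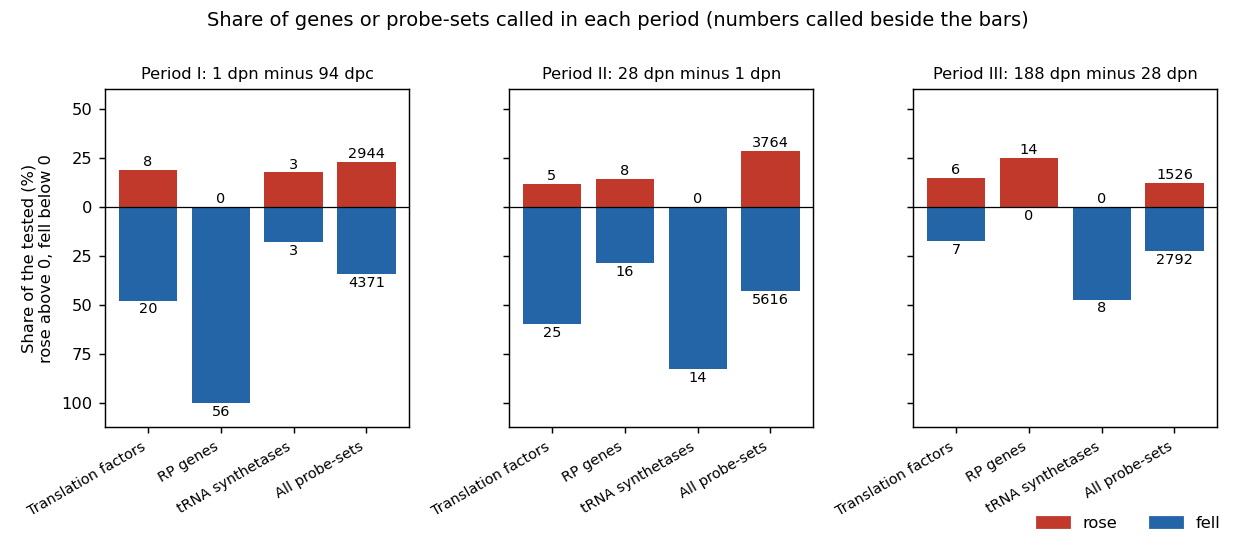
Share of the tested genes that rose (red, above 0) or fell (blue, below 0) in each period among translation factors, RP genes, tRNA synthetases and all probe-sets, with the number called beside each bar. All 56 RP genes fell in period I, and the factors and the tRNA synthetases had most of their falls in period II, with 25 of 42 and 14 of 17.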

How the data were processed

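The livers of 63 HP offspring were profiled on Affymetrix porcine arrays with 24123 probe-sets, in 16, 16, 15 and 16 animals at 94 dpc, 1 dpn, 28 dpn and 188 dpn. The authors deposited log2 signal values. The submitters' processing notes name GCOS 1.1.1. On every array the mean linear signal without the top and bottom 2% is close to 500, so arrays had been scaled to that mean, and no further normalization between arrays is visible. Signals under 1 stand at 0. Arrays have no read depth; their number and the distance from background limit the precision. Sib pairs, sex, mother and weight are not given in the labels and were not used, so the p-values do not allow for sibs among the animals.

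Of all probe-sets, 158 controls without a pig gene symbol were dropped. Names followed the platform annotation, and all 42 occur in the RefSeq table of the current pig assembly. For each period, limma 3.58.1 (lmFit, eBayes, two-sided) was run in R 4.3.3 on both stages, keeping probe-sets that exceeded the median of the array in 50% or more of the arrays from either stage. The GCRMA values and the mixed model of the study were not used here. Named factors are, per period, the 5 largest called rises and falls and the 3 largest called differences from the RP mean in each direction, the members of both factor lists and the largest change of each functional group. Others were added after their values were seen. The members and the lists were chosen with earlier results of these data known. The fit was tested on simulated data. Alternatives were other filters, scalings, thresholds and variance models, the mean of all probe-sets of a gene, a labelling covariate, the RP median and leaving out single arrays.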

Additional observations from a re-analysis of the deposited data

How the results depend on the processing

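Under the alternatives, 116 repeats of the counts of called factors stayed within 1.5 times of the reported value and 20 did not. In period I the labelling covariate left 0 rises and 0 falls, and 0 and 0 relative to the RP mean; it separates the stages of that period completely. Quantile normalization gave 2 rises in period II, 14 factors above and 14 below the RP mean in period I, and 5 above and 5 below it in period III. Centring gave 11 rises and 16 falls in period II and 11 rises and 4 falls in period III. Period III had 3 rises without a filter on level, and 3 rises, 3 falls and 5 factors below the RP mean at an adjusted p under 0.01. With a limit of 1 in place of 0.5, 20 factors followed the RP mRNAs and 13 departed, and 8 followed after quantile normalization.

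For the named factors, 1667 repeats kept sign and call, 128 lost a call, 44 gained one and 29 turned the sign. The mean of all probe-sets turned EIF4E2 (−0.036) and EIF4EBP2 (0.039) in period I, and EEF1A1 (0.46, and 0.54 relative to the RP mean), EIF4EBP2 (0.13) and EIF5A (−0.42, and −0.34 relative to the RP mean) in period II. The covariate turned EEF1A1 (0.22), EEF1E1 (−0.53), EIF3B (−0.24) and EIF4E2 (−0.20) in period I, and, relative to the RP mean, EEF1B2 (0.020), EEF1E1 (−0.19), EIF1B (−0.10), EIF4E (−0.77), EIF4EBP2 (−0.27) and EIF5A (−0.28). Quantile normalization turned EEF1D (−0.20) and EIF5A (−0.043) in period II and EEF1B2 (−0.0091) in period III, and, relative to the RP mean, EEF1A1 (−0.013), EEF1AKMT1 (−0.45), EIF1B (−0.056), EIF2B2 (−0.57), EIF3L (−0.47) and EIF4EBP2 (−0.23) in period I and EEF1A1 (0.046) in period II. Centring turned EEF1G (0.068) and EIF3L (0.030) in period II. The cause was not tested for any of them. Centring and quantile normalization moved the share of rises among all called probe-sets in period I to 50.9% and 48.2%, in period II to 54.6% and 51.5%, and in period III to 56.2% and 47.4%, and centring moved the median of all probe-sets to 0.01, 0.08 and 0.04. Each animal was sampled at 1 stage, so animals could not be paired between stages. Born animals were not paired by litter because the labels do not give the mother. Signals near background, as of EIF4E and EIF5B, understate changes.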
